A study of Mus musculus with 120 samples.

Results

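The genes described here are 49 genes of the endoplasmic reticulum (ER): those that bring a growing secretory protein to the ER membrane and through it, those that cut and glycosylate it, those that fold it, and the factors of the unfolded protein response. They were taken from a list of gene symbols, which named 49 of the 46078 genes in the files, and the rule itself uses no measured value, although the list was drawn up with earlier results of these data known. By role the list holds 6 genes of the signal recognition particle and its receptor, 9 of the translocon, 5 of the signal peptidase, 7 of glycosylation, 15 chaperones and folding enzymes, and 7 stress factors.

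The data are 3′ RNA-seq libraries of 120 single mouse group 2 innate lymphoid cells (ILC2), 1 library per cell. The cells were sorted from the pooled mesentery of wildtype C57BL/6 mice by c-Kit and Sca-1 among cells without lineage markers, kept in culture, and stimulated with IL-2 and IL-33 under live imaging of their secretion. Stimulated cells were picked by their own secretion trace, read either from IL-13 or from IL-5, and pre-stimulation cells were taken before the stimulus was added. The 2 sets are called the IL13 index and the IL5 index. For each index there were 5 unstimulated cells (pre-stimulation) and 11 cells each of 5 stimulated states. Cells of the transition state were taken 30, 60 and 90 min after the onset of secretion. Activated cells had secretion detected at the end of the observation, and silent cells had none detected by then. Secretion here is that of the cytokine of the index. All cells share the sorting scheme, the culture conditions and the wildtype genotype, and apart from the pre-stimulation cells all were stimulated. The labels tie no cell to an animal or a culture, and each state of each index was taken as 1 sample. No test between states was possible, no p-value is given, and a difference between groups below is a difference between these cells. The cells of a state also carry 1 or 2 dates in their titles, with 5 or 6 cells per date, and the pre-stimulation cells carry only the first date of their index. Libraries were pooled in sets of 5 or 6. The labels do not list the members of a pool, but cells of 1 state and date form 22 sets of that size, and if these were the pools, pool and state cannot be told apart. The dates of the 2 indexes differ, so that index and date cannot be told apart either.

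Secretory proteins are made on ribosomes that the signal recognition particle docks at the ER, thread through the Sec61 channel, lose their signal peptide to the signal peptidase, and receive N-linked sugars from the oligosaccharyltransferase. In the ER lumen, chaperones of the Hsp70 and Hsp90 families, the lectins calnexin and calreticulin, and protein disulfide isomerases fold them. When unfolded protein builds up, the sensors Ire1, Perk and Atf6 act through the transcription factors Xbp1, Atf4 and Atf6 to raise chaperone and degradation genes. ILC2 are lymphocytes that secrete large amounts of type 2 cytokines within hours of stimulation.

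The libraries held 31016336 reads in genes, with a median of 254001 reads per cell, a lowest of 65 and a highest of 785198. Levels are counts scaled to 1000000 gene reads (CPM). The level of a group is the CPM of the reads summed over its cells, with an exact 95% Poisson interval that covers counting error only, since the files carry no molecular identifiers. Values for single cells are given for the 114 cells with at least 84667 reads, which is the median depth divided by 3. The reads are 3′ tags, and levels are compared for a gene between groups, not between genes. All 14 ILC2 marker genes had reads, with a summed level of 6370 to 14212 CPM over the 12 groups. That sum was 12523 CPM in pre-stimulation and 6370 CPM in activated cells of the IL13 index and 11811 and 8502 CPM in the IL5 index, and 7 and 4 of the 12 markers that could be compared were at least 2-fold lower in activated cells, with 2 (Rora and Il2ra) higher, where 33.6 and 35.7% of all genes were lower and 26.9 and 25.6% higher. B and plasma cell markers had reads for 1 of 8 genes (Ighm), with Cd79a and Jchain at 0 and a summed level of 0 to 275.8 CPM. T cell markers had reads for 6 of 8 genes, with Cd4 and Cd8a at 0 and 327.4 to 1884 CPM. Macrophage markers had reads for 2 of 7 genes (0 to 38.3 CPM), mast cell and basophil markers for 2 of 6 (0 to 326.0 CPM) and stromal and adipocyte markers for 0 of 6. Between pre-stimulation and activated cells the T cell markers went from 1740 to 514.8 CPM in the IL13 index and from 1884 to 327.4 CPM in the IL5 index, and Ighm went from 275.8 to 9.08 CPM and from 235.1 to 21.4 CPM. The part of these markers in the differences below was not tested.

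Together the 49 genes took more of the reads in activated cells than in any other state, in both indexes. The module held 12522 CPM in pre-stimulation cells of the IL13 index (95% interval 12300 to 12747), 9668.6 CPM at 30 min, 11870 CPM at 60 min, 12434 CPM at 90 min, 20454 CPM in activated cells (20297 to 20611) and 14226 CPM in silent cells. Levels in the IL5 index were 13273 CPM before stimulation (13068 to 13479), 14172 CPM at 30 min, 17305 CPM at 60 min, 18577 CPM at 90 min, 23130 CPM in activated cells (22976 to 23285) and 18257 CPM in silent cells. The activated level was 1.63-fold the pre-stimulation level in the IL13 index (log2 ratio 0.71, counting interval 0.68 to 0.74) and 1.74-fold in the IL5 index (0.80, 0.78 to 0.83). At 30 min the log2 ratios to the pre-stimulation cells were −0.37 and 0.09, and the IL5 value was −0.06 without cell 5 of the 30 min group. Silent cells lay between, 0.18 and 0.46 above the pre-stimulation cells on the log2 scale, and activated cells lay 0.52 and 0.34 above silent cells.

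The spread between cells was as wide as most of these steps. The module took 0.849, 1.30 and 1.44% of the reads of a pre-stimulation cell of the IL13 index (lowest, median and highest of 5 cells), 0.685, 0.887 and 1.46% at 30 min and 1.55, 1.81 and 3.26% in activated cells. All 11 activated cells of the IL13 index lay above all 5 pre-stimulation cells. Silent cells of that index ran from 1.04 to 2.22% with a median of 1.31%, and overlapped both. Shares in the IL5 index were 0.939, 0.980 and 2.14% before stimulation, 0.699, 1.31 and 2.41% at 30 min, 1.16, 2.18 and 3.43% in activated cells and 1.20, 1.72 and 2.85% in silent cells, and all of these ranges overlapped. By date, activated cells held 22827 and 18910 CPM in the IL13 index and 21145 and 24595 CPM in the IL5 index (first and second date), and silent cells held 13970 and 14362 CPM and 19153 and 17257 CPM. On both dates of each index the activated level was above the silent one.

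**Figure D1:**
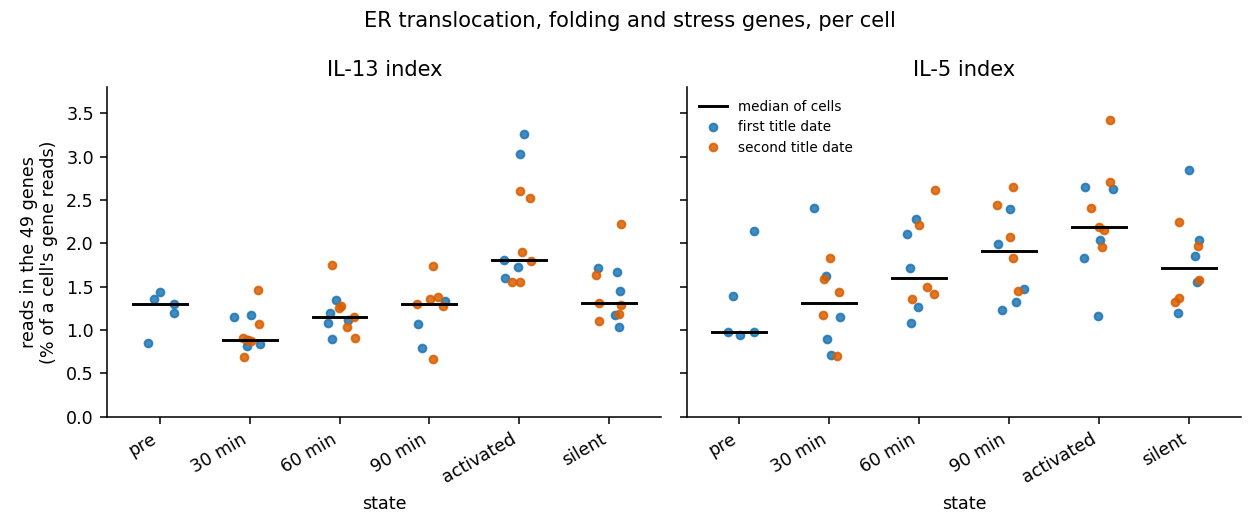
Share of each cell's gene reads taken by the 49 ER genes (percent, y axis) by state, with the IL13 index and the IL5 index in separate panels; each point is 1 cell of the 114 and each bar is the median of a group. The activated medians of 1.81% (IL13) and 2.18% (IL5) are the highest of their panels, and the IL5 groups overlap throughout.

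CPM are shares of 1 total, and the total itself differed between states. A list of 25 secreted products of lymphocytes, with Il13, Il5, Csf2, Il9 and Ccl1 among those it holds, took 235.4 CPM in IL13 pre-stimulation cells, 8439 CPM at 30 min, 69423 CPM in activated cells and 2156 CPM in silent cells. The same list took 240.1, 21944, 82910 and 10663 CPM in these states of the IL5 index. The ER genes were thus higher in activated cells although the secreted products took more of the reads there than in any other state. At 30 min in the IL13 index the secreted products were above their pre-stimulation level while the ER genes were below theirs, and in the IL5 index both were above. The IL5 difference of the ER genes was small (log2 ratio 0.09), and its sign turned with single cells left out.

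A gene was compared between 2 groups where its mean over them was at least 50 CPM. For activated against pre-stimulation cells, 39 of the 49 genes reached this level in the IL13 index and 44 in the IL5 index. A gene with at least a 2-fold difference is called higher or lower. In the IL13 index 18 of the 39 were higher, against 26.9% of all 2641 genes tested, and 3 were lower, against 33.6%. For the IL5 index 21 of 44 were higher, against 25.6% of 2762 genes, and 5 were lower, against 35.7%. The median log2 ratio was 0.86 for the members and −0.15 for all genes in the IL13 index, and 0.95 and −0.32 in the IL5 index. No member of the 39 had every activated cell above every pre-stimulation cell in the IL13 index, where 0.719% of all genes did. Hspa5, Calr and Manf did in the IL5 index, 3 of 44, where 2.53% of all genes did.

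There were 12 members at least 2-fold higher in both indexes: Srp19, Ssr2, Rpn1, Rpn2, Hspa5, Calr, Canx, Pdia4, Pdia6, Manf, Sdf2l1 and Creld2. They are 12 of the 39 members compared in both indexes, against 18.1% of the 1956 genes compared in both. Of these 12, 8 are chaperones or folding enzymes. With each cell left out in turn, all 12 kept their direction in both indexes, and 8 stayed at least 2-fold higher in both (Ssr2, Rpn1, Hspa5, Calr, Pdia4, Pdia6, Manf and Creld2). The 3 members at least 2-fold lower in both, against 14.8% of all genes, were Stt3b, Xbp1 and Ddit3. Of these Stt3b alone kept its direction in both indexes with each cell left out, and none stayed 2-fold lower in both. Many of the ratios rest on single cells: leaving out 1 cell moved the fold by over 1.5 times for 16 of the 21 members called in the IL13 index and 21 of the 26 in the IL5 index, and in 15 and 19 of these it was a pre-stimulation cell. Values with cells left out are given below beside many of these ratios, with 3 reads used where fewer were left. Here and below, calls with a cell left out were counted for the members only. These counts have no share of all genes beside them.

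**Figure D2:**
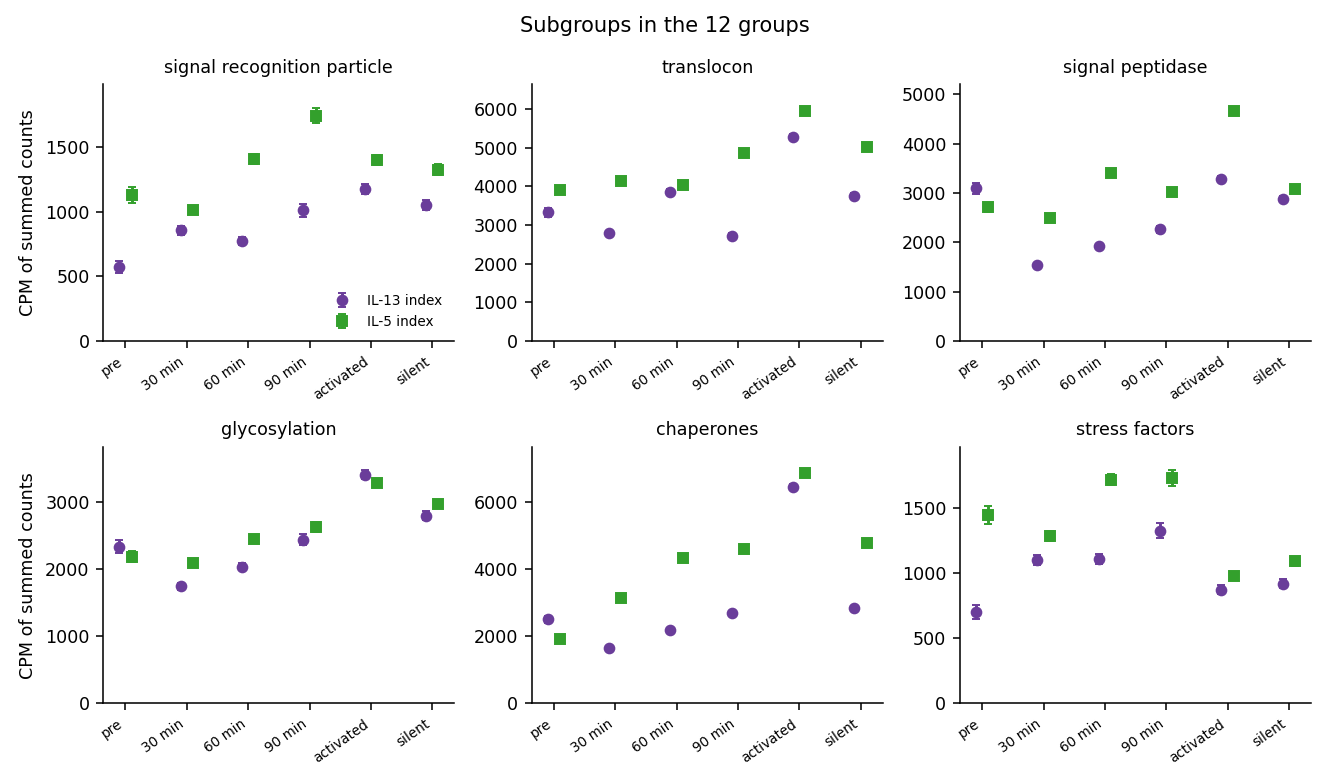
Summed CPM of the 6 role groups (y axis) over the 6 states, for the IL13 index and the IL5 index; bars are exact 95% Poisson intervals. The chaperones go from 2499 to 6443 CPM between pre-stimulation and activated cells in the IL13 index and from 1913 to 6857 CPM in the IL5 index, while the stress factors end at 870.9 and 974.5 CPM, under their 90 min levels of 1322 and 1724 CPM.

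The signal recognition particle binds the signal peptide as it leaves the ribosome. Its Srp9 and Srp14 subunits, which form the part that slows translation, and Srp19, Srp68 and Srp72 were measured with Srprb, the membrane subunit of its receptor. Their summed level went from 570.3 CPM before stimulation to 1175 CPM in activated cells of the IL13 index (log2 ratio 1.04) and from 1126 to 1400 CPM in the IL5 index (0.31). Srp9 held 361.6, 942.1, 0, 0 and 4.63 CPM in the 5 pre-stimulation cells of the IL13 index and 314.9, 753.5, 317.2, 1108 and 0 CPM in those of the IL5 index. Activated cells held 0, 364.1 and 1007 CPM (lowest, median and highest) and 174.1, 375.0 and 1948 CPM. In each index at least 1 pre-stimulation cell lay above the activated median, and the group ratios were 0.69 and −0.03 on the log2 scale. They ran, with each cell left out, from 0.33 to 1.88 and from −0.43 to 0.50.

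Srp14 read 69.1, 0, 200.3, 0 and 291.7 CPM in the IL13 pre-stimulation cells and 142.5, 766.5, 0, 716.2 and 186.7 CPM in those of the IL5 index. The activated cells read 0, 192.2 and 856.8 CPM and 6.09, 327.5 and 812.9 CPM. Its ratio was 1.11 in the IL13 index (1.92 without pre-stimulation cell 5) and −0.31 in the IL5 index, and the IL5 value ran from −0.66 to 0.18 with each cell left out. With all 10 pre-stimulation cells as the reference the IL13 value was −0.16. Srp19, which helps assemble the particle, had no read in the 5 pre-stimulation cells of the IL5 index, where 3 reads would be the floor, and stood at 255.6 CPM in activated cells, at least 103-fold higher, or at least 60.7-fold without cell 7 of the activated group. It went from 132.7 to 335.1 CPM in the IL13 index (log2 ratio 1.34), and 77.3% of the pre-stimulation reads were in cell 1, without which the ratio was 3.05. In silent cells it stood at 366.5 and 255.7 CPM, so that it did not separate activated from silent cells (log2 ratios −0.13 and −0.00).

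The Sec61 channel of Sec61a1, Sec61b and Sec61g, its partners Sec62 and Sec63, and the TRAP complex of Ssr1 to Ssr4, which helps some signal peptides enter, made up the translocon group. The group went from 3324 to 5282 CPM between pre-stimulation and activated cells in the IL13 index (log2 ratio 0.67) and from 3905 to 5958 CPM in the IL5 index (0.61). The log2 ratio was 1.18 for Sec61g in the IL13 index (803.6 to 1815 CPM) and 0.00 in the IL5 index, where both groups stood at 1799 CPM, and ran from 0.99 to 1.57 and from −0.17 to 0.49 with each cell left out. Its pre-stimulation cells held 1361, 290.3, 388.5, 1244 and 541.8 CPM and, in the IL5 index, 7.50, 2166, 1352, 3410 and 737.6 CPM. Activated cells ran from 232.4 to 3039 CPM with a median of 1717 CPM and from 686.2 to 3215 CPM with a median of 1960 CPM, over the whole range of the pre-stimulation cells apart from the lowest and the highest IL5 cell.

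Sec62 serves the post-translational route into the ER and the turnover of ER after stress. It was the member of the translocon that was lower in activated than in silent cells of both indexes by nearly the same amount, 665.8 against 1199 CPM and 430.3 against 776.7 CPM, a log2 ratio of −0.85 in each, short of 2-fold. Its pre-stimulation cells held 446.9, 983.5, 983.4, 699.2 and 1250 CPM in the IL13 index and 1822, 0, 2946, 23.9 and 238.1 CPM in the IL5 index. Cell 3 held 72.2% of these IL5 reads, and without it the activated to pre-stimulation ratio went from −1.05 to 0.44.

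Ssr2, the TRAP beta subunit, was higher in activated cells of both indexes, 446.2 against 170.1 CPM (log2 ratio 1.39) and 632.9 against 146.8 CPM (2.11). With each cell left out the ratio ran from 1.03 to 3.56 and from 1.71 to 3.87, the highest without pre-stimulation cells 4 and 3. Its pre-stimulation cells had a median of 0 CPM and a highest of 794.0 CPM in the IL13 index, and a median of 4.67 CPM and a highest of 517.4 CPM in the IL5 index. The 11 activated cells of each index read 0, 387.5 and 990.7 CPM and 193.5, 581.3 and 1284 CPM. In the transition state Ssr2 went from 102.4 CPM at 30 min to 250.4 CPM at 90 min in the IL13 index and from 293.4 to 670.2 CPM in the IL5 index, 1 of 2 members at least 2-fold higher at 90 than at 30 min in both indexes. The other was Stt3a. They are 2 of 36 members compared in both, against 4.58% of all genes, and with each cell left out both kept their direction but neither stayed 2-fold higher in both indexes. For that comparison 11 of 37 members were higher in the IL13 index (24.2% of all genes) and 11 of 43 in the IL5 index (20.0%), and 1 (Srp72, against 19.2%) and 0 (against 14.0%) were lower. Ssr4, the TRAP delta subunit, stood at 876.8 against 628.4 CPM in the IL13 index and at 1280 against 292.0 CPM in the IL5 index, log2 ratios of 0.48 and 2.13, and the latter was 3.16 without pre-stimulation cell 5.

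Sec61b went from 699.9 to 1205 CPM and from 520.5 to 1406 CPM, and the IL5 log2 ratio of 1.43 was 2.06 without pre-stimulation cell 4. Ssr1 and Ssr3 had no read before stimulation in the IL5 and the IL13 index respectively. Sec61a1, the channel itself, stood at 206.1 CPM or less in every group and Sec63, the J-domain partner of Sec62, had a mean of 39.4 CPM over the groups. In Sec61a1 and Sec63 the pre-stimulation reads of the IL13 index came from 1 cell each.

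The signal peptidase cuts the signal peptide off. Its catalytic subunits Sec11a and Sec11c and the accessory subunits Spcs1, Spcs2 and Spcs3 summed to 3095 CPM before stimulation, 1539 CPM at 30 min and 3281 CPM in activated cells in the IL13 index. The IL5 levels were 2707, 2503 and 4661 CPM. The 30 min level was under the pre-stimulation level in the IL13 index (log2 ratio −1.01, and −1.18 on the first date), but the indexes did not share this. The IL5 ratio was −0.11, and it was 0.48 without pre-stimulation cell 4 and 0.06 on the first date. Sec11a was lower at 30 min in both indexes, 124.8 against 483.2 CPM (log2 ratio −1.95, counting interval −2.16 to −1.75) and 152.3 against 617.1 CPM (−2.02, −2.18 to −1.86), and stayed at least 2-fold lower in both with each cell left out. Its pre-stimulation cells ran from 6.07 to 918.4 CPM and from 264.2 to 1078 CPM, and its 30 min cells from 0 to 606.2 CPM with a median of 0 and from 0 to 471.1 CPM with a median of 137.7 CPM. The exons of Sec11a overlap those of Nmb over 163 bases on the same strand, and reads there could be counted to either or to none.

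Its sister subunit Sec11c did not share that pattern. Sec11c read 1507, 5.92, 0, 568.8 and 1773 CPM in the IL13 pre-stimulation cells and 0, 329.4, 0, 1143 and 1149 CPM in those of the IL5 index, and stood at 697.8 and 861.0 CPM at 30 min. Activated cells held 263.9, 1187 and 2006 CPM and 676.4, 809.5 and 5260 CPM, with 37.2% of the IL5 reads in 1 cell. The activated to pre-stimulation ratio was 0.39 and 1.65 on the log2 scale, and ran from 0.12 to 0.89 and from 1.17 to 2.22 with each cell left out.

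Spcs2, a subunit that links the peptidase to the translocon, held 544.4, 3152, 0, 545.1 and 1644 CPM and 1822, 0, 120.9, 2005 and 1186 CPM in the pre-stimulation cells. Activated cells held 421.1, 1370 and 3314 CPM and 635.2, 1390 and 3095 CPM, and the groups overlapped, with ratios of 0.28 (0.01 to 0.94 with each cell left out) and 0.92 (0.50 to 1.60). Spcs1 differed by −0.08 and 0.20, and each sign turned with 1 cell left out. Spcs3 differed by −0.84 (−1.20 to −0.32) and 0.61 (0.27 to 2.40). No signal peptidase gene was 2-fold apart between activated and pre-stimulation cells in both indexes.

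The oligosaccharyltransferase adds the sugar chain to asparagine. Its ribophorins Rpn1 and Rpn2, Ddost, Dad1, Ostc and the catalytic subunits Stt3a and Stt3b summed to 2332 and 2181 CPM before stimulation and to 3403 and 3281 CPM in activated cells, log2 ratios of 0.55 and 0.59. Rpn1 went from 19.7 CPM before stimulation, all from 1 cell, to 204.2 CPM in activated cells in the IL13 index (log2 ratio 3.37, counting interval 2.72 to 4.11) and from 52.0 to 291.5 CPM in the IL5 index (2.49, 2.12 to 2.88). With each cell left out the IL5 ratio ran from 2.09 to 5.26, the highest without pre-stimulation cell 4, and the IL13 ratio from 2.87 to 5.61, where no pre-stimulation read was left. All 11 activated cells of each index had reads, at 3.75, 90.2 and 794.6 CPM and at 61.8, 281.6 and 650.1 CPM. In both indexes its level was higher at 90 than at 60 min and higher still in activated cells, with 8.82, 103.9 and 204.2 CPM and with 89.9, 120.3 and 291.5 CPM.

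Dad1, a small subunit of the complex, read 1337, 1363, 12.1, 1772 and 967.7 CPM in the IL13 pre-stimulation cells and 839.8, 965.5, 109.5, 750.3 and 2801 CPM in those of the IL5 index. Activated cells held 437.1, 2091 and 2798 CPM and 638.4, 1359 and 3247 CPM, with ratios of 0.69 (0.42 to 0.89 with each cell left out) and 0.64 (0.32 to 1.30). The groups overlapped, and silent cells stood at 1613 and 1569 CPM against 1788 and 1617 CPM in activated cells.

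The catalytic subunits differed in direction. Stt3b, the subunit that also works after translation, was lower in activated than in pre-stimulation cells, 195.1 against 631.5 CPM (log2 ratio −1.69) and 127.3 against 466.9 CPM (−1.88). Its pre-stimulation cells held 162.5, 0, 461.3, 2370 and 430.6 CPM and 577.3, 1089, 0, 105.7 and 578.9 CPM. Those after activation read 0, 210.2 and 551.1 CPM and 0, 70.0 and 442.1 CPM, and in both indexes they overlapped with the lower pre-stimulation cells. Without cell 4, which held 65.7% of the IL13 pre-stimulation reads, the IL13 ratio was −0.43, while the IL5 ratio stayed between −2.27 and −1.01 with each cell left out. Stt3a, which works during translocation, stood at 122.1 against 78.8 CPM and at 239.6 against 121.3 CPM in activated and pre-stimulation cells, log2 ratios of 0.63 and 0.98, and in the IL5 index 1 cell held all its pre-stimulation reads. Ostc (1.41 and 0.33) and Ddost (0.87 and 1.66) were each 2-fold higher in 1 index, with 2.47 for Ostc without pre-stimulation cell 1 and 3.00 for Ddost without pre-stimulation cell 4, and Rpn2 in both (1.29 and 1.29). With each cell left out Rpn2 ran from 0.93 to 2.83 and from 0.86 to 3.65, so that in each index leaving out 1 cell took it under 2-fold.

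**Figure D3:**
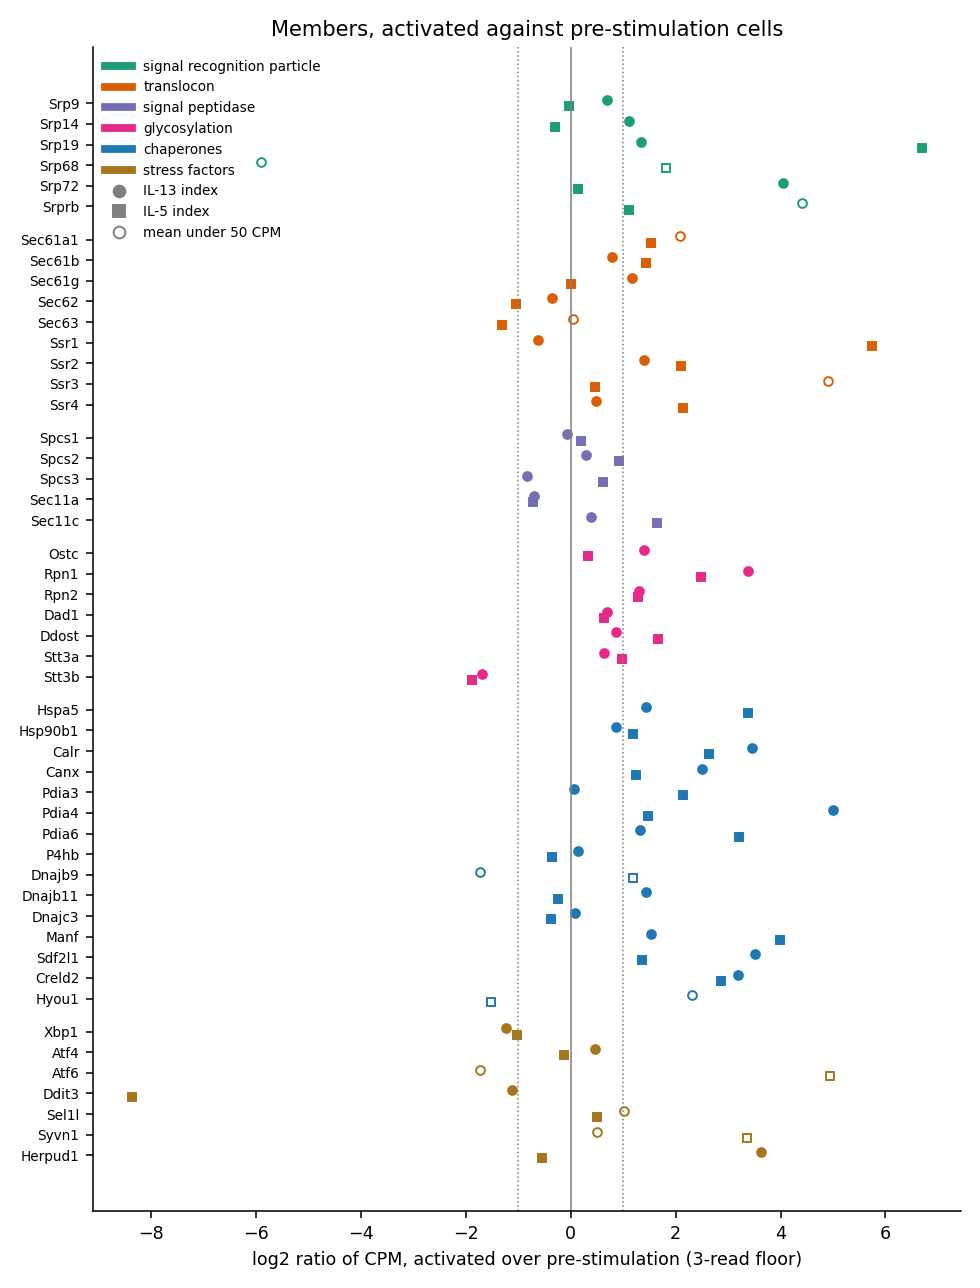
Log2 ratio of activated to pre-stimulation CPM (x axis) for each of the 49 genes (y axis, grouped by role), with 1 point for the IL13 index and 1 for the IL5 index. Dotted lines mark 2-fold, and hollow points have a mean under 50 CPM over the 2 groups. Most chaperones lie right of 1 in both indexes (Calr at 3.46 and 2.64, Creld2 at 3.18 and 2.86), and Stt3b, Xbp1 and Ddit3 lie left of −1.

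Of the 6 role groups the chaperones and folding enzymes differed most between activated and pre-stimulation cells. They went from 2499 to 6443 CPM between pre-stimulation and activated cells in the IL13 index, 2.58-fold (log2 ratio 1.37, counting interval 1.31 to 1.43), and from 1913 to 6857 CPM in the IL5 index, 3.58-fold (1.84, 1.78 to 1.90). Without cell 4 of the IL5 pre-stimulation group, which left 1143 CPM, the IL5 fold was 6.00, and with each cell left out it was 2.99-fold or more in the IL5 index and 2.32 to 2.83-fold in the IL13 index. Their part of the module's reads went from 20.0 to 31.5% and from 14.4 to 29.6%. The IL13 level was 1645 CPM at 30 min, 2183 CPM at 60 min, 2680 CPM at 90 min and 2847 CPM in silent cells, and activated cells stood above all other states. By date the chaperones went from 2144 CPM at 30 min to 2028 CPM at 90 min on the first date of that index and from 1351 to 2909 CPM on the second, so the higher 90 min level was on the second date only. The IL5 level was 3145, 4318 and 4594 CPM over the transition state and 4771 CPM in silent cells. Per cell the group took 0.131, 0.225 and 0.344% of the reads of IL13 pre-stimulation cells and 0.285, 0.478 and 1.43% of activated cells, and 0.0752, 0.106 and 0.433% and 0.277, 0.611 and 1.29% in the IL5 index. The ranges overlapped in both indexes through the highest pre-stimulation cells.

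Hspa5, the ER Hsp70 known as BiP, read 146.3, 355.5, 673.8, 5.93 and 615.8 CPM in the IL13 pre-stimulation cells and 0, 290.3, 0, 44.3 and 0 CPM in those of the IL5 index. Activated cells held 224.6, 778.1 and 2712 CPM and 299.2, 704.2 and 2160 CPM. All IL5 activated cells were above all IL5 pre-stimulation cells, and the IL13 groups overlapped. The group ratios were 1.44 (counting interval 1.28 to 1.60) and 3.38 (3.10 to 3.68) on the log2 scale, and the latter ran from 3.03 to 5.94 with each cell left out, the highest without pre-stimulation cell 2. Hspa5 in the IL5 index went from 301.8 CPM at 30 min to 892.4 CPM at 60 min and stood at 976.9 CPM at 90 min, 878.3 CPM in activated and 915.3 CPM in silent cells. In the IL13 index silent cells were at 358.9 CPM, near the pre-stimulation 353.6 CPM, against 958.2 CPM in activated cells. The activated to silent ratio was thus 1.42 in the IL13 index and −0.06 in the IL5 index.

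Manf, a secreted ER stress protein that binds BiP, stood at 1925 and 2129 CPM in activated cells. It read 1532, 0, 0, 740.7 and 666.8 CPM in the IL13 pre-stimulation cells and 0, 0, 0, 552.5 and 0 CPM in those of the IL5 index. Activated cells held 680.0, 1502 and 5713 CPM and 848.8, 1815 and 3962 CPM. Activated cells of the IL5 index thus lay above all 5 pre-stimulation cells, of which 1 held all the reads, and the ratios were 1.52 (1.41 to 1.64) and 3.99 (3.77 to 4.23). Without that cell no pre-stimulation read was left, and the IL5 ratio against the 3-read floor was at least 9.35. In the IL13 index the ratio was 2.36 without pre-stimulation cell 1. Silent cells held 574.6 and 1112 CPM, with 0, 567.1 and 1720 CPM and 148.1, 1311 and 1929 CPM over cells, and the activated to silent ratios were 1.74 and 0.94. At 30 min Manf was at 400.1 CPM in the IL13 index, under its pre-stimulation level, and at 1010 CPM in the IL5 index, log2 ratios of −0.74 and 2.92, the latter also resting on that 1 IL5 cell. Exons of Manf overlap those of Rbm15b over 14 bases on the same strand and those of Dcaf1 on the opposite strand.

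**Figure D4:**
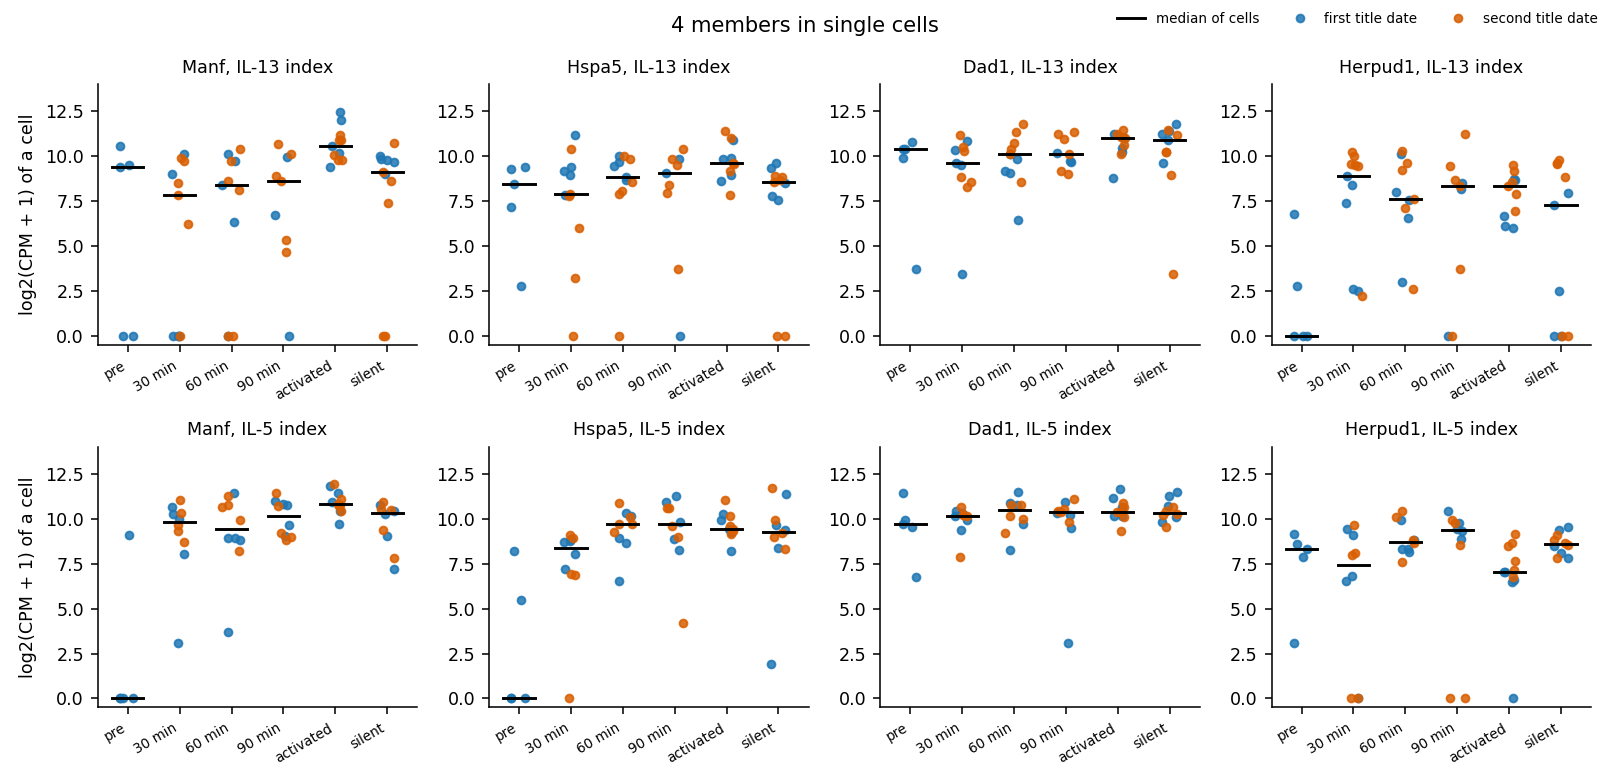
Level of Manf, Hspa5, Dad1 and Herpud1 in each cell (y axis, log2 of CPM + 1) by state and index; points are cells coloured by title date and bars are medians. Activated cells hold Manf at 680.0 CPM or more in the IL13 index and 848.8 CPM or more in the IL5 index, where 4 of 5 pre-stimulation cells are at 0, and the medians of Dad1 lie between 781.0 and 2091 CPM in all states.

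Calreticulin (Calr), the soluble lectin chaperone, was the gene that was higher already at 30 min in both indexes, at 260.0 against 58.1 CPM (log2 ratio 2.16, counting interval 1.77 to 2.58) and at 241.3 against 81.7 CPM (1.56, 1.26 to 1.88). It was the 1 member for which this held in both indexes, of 34 that could be compared in both, where 12.7% of all genes were higher. It stayed at least 2-fold higher with each cell left out, at 2.79 in the IL13 index without pre-stimulation cell 3. In all, 3 of 35 members were higher at 30 min in the IL13 index (Srp72, Calr and Herpud1), against 25.7% of all genes, and 8 of 42 in the IL5 index, against 26.3%. With a cell left out these counts ran from 3 to 5 and from 7 to 16. Lower at 30 min were 14 and 5 members, against 30.7 and 30.2% of all genes, and 3 of the 34 were lower in both (Sec11a, P4hb and Ddit3), against 8.66%. Calr ran from 0 to 157.8 CPM over the IL13 pre-stimulation cells and from 0 to 150.0 CPM over those of the IL5 index, and in activated cells it held 87.0, 463.2 and 1940 CPM and 161.2, 427.7 and 1105 CPM. The lowest activated cell of the IL5 index was above the highest pre-stimulation cell, and the IL13 groups overlapped. The activated to pre-stimulation ratios were 3.46 (4.09 without pre-stimulation cell 3) and 2.64, and the activated to silent ratios 1.71 and 1.03, from silent levels of 194.9 and 250.2 CPM.

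Calnexin (Canx), the membrane-bound lectin chaperone, stood at 333.5 against 59.1 CPM and at 231.8 against 98.2 CPM in activated and pre-stimulation cells (2.50 and 1.24), but silent cells held 257.3 and 334.0 CPM. In each index 1 cell held nearly all pre-stimulation reads of Canx, 100 and 99.2%, and with each cell left out the IL5 ratio was 0.82 or more. Hsp90b1, the ER Hsp90 known as Grp94, went from 342.2 to 623.2 CPM and from 376.2 to 859.6 CPM (0.86 and 1.19). The IL5 ratio ran from 0.77 to 3.60 with each cell left out, the highest without pre-stimulation cell 4. At 30 min in the IL13 index it stood at 16.4 CPM, with 97.7% of its reads in 1 cell, and at 331.9 CPM in the IL5 index.

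Creld2, a secreted protein with disulfide isomerase activity, was the member that stayed at least 2-fold higher in activated than in silent cells of both indexes with each cell left out, 234.9 against 54.8 CPM (log2 ratio 2.10, counting interval 1.84 to 2.37) and 340.6 against 90.4 CPM (1.91, 1.73 to 2.11). Before stimulation it stood at 25.9 and 47.0 CPM, and 1 cell held 100 and 94.7% of those reads. The activated to pre-stimulation ratios, 3.18 and 2.86, were 2.81 and 2.44 or more with each cell left out. Without silent cell 4 the IL13 ratio to silent cells was 2.76. Activated cells held 0, 266.5 and 680.4 CPM and 0, 291.6 and 794.9 CPM, against a silent median of 0 and 64.3 CPM and a silent highest of 271.1 and 330.8 CPM. Sdf2l1, a partner of BiP and its J-domain proteins, was also higher than in silent cells, at 130.6 against 10.6 CPM and at 304.9 against 100.5 CPM (3.63 and 1.60), with 48.9 and 42.0% of the activated reads in 1 cell. With each cell left out its ratio to silent cells was 2.77 or more in the IL13 index, where silent cell 2 held all 28 silent reads, and 0.95 or more in the IL5 index, the lowest without activated cell 10. Against pre-stimulation cells (3.52 and 1.36) it was 2.66 and 0.70 or more.

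The protein disulfide isomerases form and reshuffle disulfide bonds. Pdia6 was higher in activated than in pre-stimulation cells, 475.7 against 189.8 CPM (1.33) and 649.0 against 70.1 CPM (3.21). Without pre-stimulation cell 5 the IL5 ratio was 5.09, and with each cell left out it was 2.81 or more. Its activated cells held 90.5, 393.1 and 1780 CPM and 197.8, 685.9 and 1011 CPM. Pdia4 held 3 reads in all before stimulation in the IL13 index, and stood at 99.3 CPM in activated cells, a log2 ratio of 5.00 with a counting interval of 3.44 to 7.28. In the IL5 index it stood at 51.2 and 141.5 CPM (1.47, and 1.05 or more with each cell left out), the former from 1 cell. Pdia3 was higher in activated than in silent cells in both indexes, 116.8 against 26.5 CPM (2.14, or 2.76 without silent cell 5) and 175.5 against 76.7 CPM (1.20, or 1.80 without silent cell 6 and 0.64 at the lowest), but not than in IL13 pre-stimulation cells, which held 112.0 CPM.

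P4hb, the isomerase that is also a subunit of prolyl hydroxylase, was lower at 30 min than before stimulation in both indexes, 129.6 against 405.4 CPM (−1.65) and 61.1 against 217.8 CPM (−1.83). Without cell 3, which held 75.4% of the IL13 pre-stimulation reads, the IL13 value was 0.11, and without pre-stimulation cell 3 of the IL5 index the IL5 value was −1.11. Its activated levels were 446.9 and 170.4 CPM. The J-domain cochaperone Dnajb11 went from 98.5 to 265.9 CPM in the IL13 index (1.43, or 2.60 without pre-stimulation cell 3) and from 321.7 to 272.0 CPM in the IL5 index (−0.24), where 95.1% of the pre-stimulation reads were in 1 cell and the ratio ran from −0.66 to 3.72 with each cell left out. Dnajc3, which also inhibits Perk, stood at 170.1 and 179.1 CPM and at 225.2 and 172.6 CPM. Dnajb9 and Hyou1 had means of 14.5 and 20.4 CPM over the groups and were too low to compare.

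The stress factors did not follow the chaperones. The transcription factors Xbp1, Atf4, Atf6 and Ddit3 and the degradation genes Sel1l, Syvn1 and Herpud1 summed to 701.0 CPM before stimulation, 1098, 1106 and 1322 CPM over the transition state, 870.9 CPM in activated and 916.6 CPM in silent cells in the IL13 index. The IL5 levels were 1440, 1284, 1714, 1724, 974.5 and 1088 CPM. Activated cells lay below the 90 min cells in both indexes, by log2 ratios of −0.60 (counting interval −0.68 to −0.52) and −0.82 (−0.89 to −0.75), while the chaperones lay above them by 1.27 and 0.58. Without cell 9 of the IL13 90 min group the stress factors there stood at 980.6 CPM in place of 1322 CPM, under their 30 and 60 min levels, and the IL13 ratio was −0.17. The stress factors took 10.6 and 9.28% of the module's reads at 90 min and 4.26 and 4.21% in activated cells.

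Herpud1, an ER membrane protein of the degradation machinery, read 0, 5.92, 0, 0 and 111.1 CPM in the IL13 pre-stimulation cells and 7.50, 381.6, 317.2, 238.7 and 560.2 CPM in those of the IL5 index. Herpud1 stood at 542.8 CPM at 30 min in the IL13 index, a log2 ratio of 4.39 (3.82 to 5.02) that was 3.96 or more with each cell left out and rested on 25 pre-stimulation reads, 96% of them in cell 5, 439.6 CPM at 60 min, 622.0 CPM at 90 min, 321.6 CPM in activated and 342.3 CPM in silent cells. The dates differed: at 30 min it stood at 191.3 CPM on the first date, which the pre-stimulation cells share (log2 ratio 2.88), and at 750.1 CPM on the second, and activated cells stood at 216.1 and 390.2 CPM, above the 30 min level on the first date (0.18) and below it on the second (−0.94). Silent cells stood at 71.2 and 485 CPM on these dates, with activated to silent log2 ratios of 1.60 and −0.31. The IL5 level went from 323.4 CPM before stimulation to 279.3, 556.7 and 672.4 CPM over the transition state and to 221.9 CPM in activated and 416.6 CPM in silent cells. Activated cells of the IL5 index stood at 89.0 CPM on the first date and 320.0 CPM on the second. They were below the 30 min level on the first date (log2 ratio −1.74) and above it on the second (0.27). Activated cells held 64.1, 318.5 and 717.8 CPM and 0, 130.0 and 567.5 CPM. In the IL5 index the level was highest at 90 min, also with any 1 cell of that time left out (616.7 CPM or more). The IL13 level at 90 min rested on cell 9, which held 56.2% of the reads. Without that cell it was 318.7 CPM, near the activated level (log2 ratio 0.01) and under the levels at 30 and 60 min. The pre-stimulation levels of the 2 indexes were far apart.

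Xbp1, the factor that Ire1 activates by splicing its mRNA, was lower in activated than in pre-stimulation cells by gene counts, 124.6 against 292.4 CPM (−1.23) and 182.5 against 372.9 CPM (−1.03). Gene counts do not separate the spliced from the unspliced mRNA. Cell 4 of the IL5 index held 87.4% of the pre-stimulation reads and without it the ratio was 1.56. Activated cells held 0, 116.0 and 373.6 CPM and 0, 149.6 and 335.0 CPM, against 0, 103.8 and 646.8 CPM and 3.79, 486.4 and 864.4 CPM at 30 min, where Xbp1 stood at 130.4 and 528.8 CPM.

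Atf4, the factor downstream of Perk that induces amino acid and redox genes, read 471.3, 0, 0, 278.5 and 393.6 CPM in the IL13 pre-stimulation cells and 0, 717.6, 517.4, 487.7 and 23.3 CPM in those of the IL5 index. Activated cells held 0, 359.7 and 740.5 CPM and 2.39, 438.5 and 666.0 CPM. These ranges covered the pre-stimulation cells apart from the IL5 cells at 0 and 717.6 CPM. The ratios were 0.47 (0.19 to 0.96 with each cell left out) and −0.14 (−0.40 to 0.27). Ddit3, the Atf4 target also called Chop, had no read in any activated cell of the IL5 index, against 264.0 CPM before stimulation, at least 328-fold lower. In the IL13 index it stood at 57.6 against 125.5 CPM (−1.12), and without cell 5, which held 86.0% of the pre-stimulation reads, the ratio was 1.34. A further gene entry of the same name overlaps exons of Ddit3 over 105 bases on the same strand, and its counts are uncertain for that reason. Sel1l and Syvn1, the membrane ligase pair of ER degradation, and Atf6 had means of 43.5, 5.85 and 21.9 CPM over the groups.

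The mRNAs of many ER chaperones are known to be induced through the ER stress response element (ERSE), which Atf6 binds together with NF-Y. Promoters from 250 bases before to 50 after the start of each gene, from RefSeq on GRCm38.p6, were available for 39 of the 49 members. The ERSE was searched as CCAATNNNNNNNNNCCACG on both strands and stood in 8 of the 39 (20.5%), against 37 of 27025 genes (0.137%). Among 59 matched genes of the wider pathway it stood in 1, Derl3. The related element ERSE-II, searched on both strands as ATTGG, any base and then CCACG, stood in Herpud1 and Dnajb11 (5.13%), against 12 genes (0.0444%), and the unfolded protein response element, searched as TGACGTGG on both strands, stood in 0 of the 39, against 0.714% of genes. Among the 59 genes of the wider pathway the ERSE-II stood in 1 (Krtcap2). The unfolded protein response element stood in 4 of these 59 (Txndc5, Txndc11, Vcp and Ube2j1). Of the members, Ssr2, Srp19, Spcs3, Ostc, Manf, Atf6, Hyou1, Sec11c, Srp68 and Sec61a1 had no entry. The windows with an element before the start are shown because 5 of the 8 ERSE genes (Hspa5, Calr, Canx, Pdia6 and Creld2) are among the 12 members higher in activated cells of both indexes. The ERSE-II of Dnajb11 lies 7 to 17 bases after the start and its window is not shown. Capitals mark the ERSE, or the ERSE-II in Herpud1. Each run is written along the gene's strand, and an element on the other strand reads as its reverse complement.
Hspa5 chr2:34772004-34772063, plus strand: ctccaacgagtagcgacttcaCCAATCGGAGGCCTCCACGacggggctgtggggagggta
Hsp90b1 chr10:86705528-86705661, minus strand: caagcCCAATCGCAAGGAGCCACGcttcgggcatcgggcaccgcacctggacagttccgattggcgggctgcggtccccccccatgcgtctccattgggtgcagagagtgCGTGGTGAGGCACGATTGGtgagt
Calr chr8:84847055-84847114, minus strand: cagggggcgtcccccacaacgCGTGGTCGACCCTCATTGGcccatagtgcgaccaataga
Canx chr11:50325780-50325839, minus strand: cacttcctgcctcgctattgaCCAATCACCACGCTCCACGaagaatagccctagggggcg
Pdia6 chr12:17266470-17266529, plus strand: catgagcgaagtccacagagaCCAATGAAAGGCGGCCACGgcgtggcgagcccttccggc
Creld2 chr15:88819499-88819558, plus strand: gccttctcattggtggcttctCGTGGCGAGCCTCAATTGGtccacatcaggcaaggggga
Dnajc3 chr14:118937806-118937865, plus strand: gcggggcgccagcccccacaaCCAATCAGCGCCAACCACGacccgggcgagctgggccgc
Syvn1 chr19:6046511-6046570, plus strand: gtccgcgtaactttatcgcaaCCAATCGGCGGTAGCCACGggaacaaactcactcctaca
Herpud1 chr8:94386352-94386411, plus strand: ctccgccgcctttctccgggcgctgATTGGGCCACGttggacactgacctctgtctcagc

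The windows end before the RefSeq start from which each promoter was cut, by 6 bases in Syvn1 to 124 bases in Calr. The gene annotation can place the start elsewhere, and for Hspa5 it begins the gene at base 34771970, before its window. Hsp90b1 holds 2 copies, 1 in each direction. The 8 members with an ERSE summed to 1199 CPM before stimulation and 3447 CPM in activated cells in the IL13 index (log2 ratio 1.52) and to 982.5 and 3667 CPM in the IL5 index (1.90). The 31 members searched without one gave 0.48 and 0.34. Of the 7 members with an ERSE that reached 50 CPM, 5 were at least 2-fold higher in the IL13 index and 6 in the IL5 index. Of all genes 26.9 and 25.6% were higher. None of the 7 was lower, against 33.6 and 35.7% of all genes, and the median log2 ratios were 1.44 and 2.64. Without an ERSE 9 of 26 and 10 of 30 were higher and 3 and 5 lower, with medians of 0.66 and 0.33. All of these 7 are chaperones or folding enzymes, of which 9 of 13 and 10 of 13 were higher with or without an ERSE, so that these 7 genes lie within the chaperone group. At 30 min the summed ratios were −0.24 and 0.81 with an ERSE and −0.37 and −0.19 without. Between activated and silent cells they were 0.87 and 0.31 with an ERSE and 0.39 and 0.23 without. The elements mark letters in a window, and binding was not measured. Pdia4, Sdf2l1, Rpn1 and Rpn2, which were higher in activated cells of both indexes, held no ERSE in their windows.

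**Figure D5:**
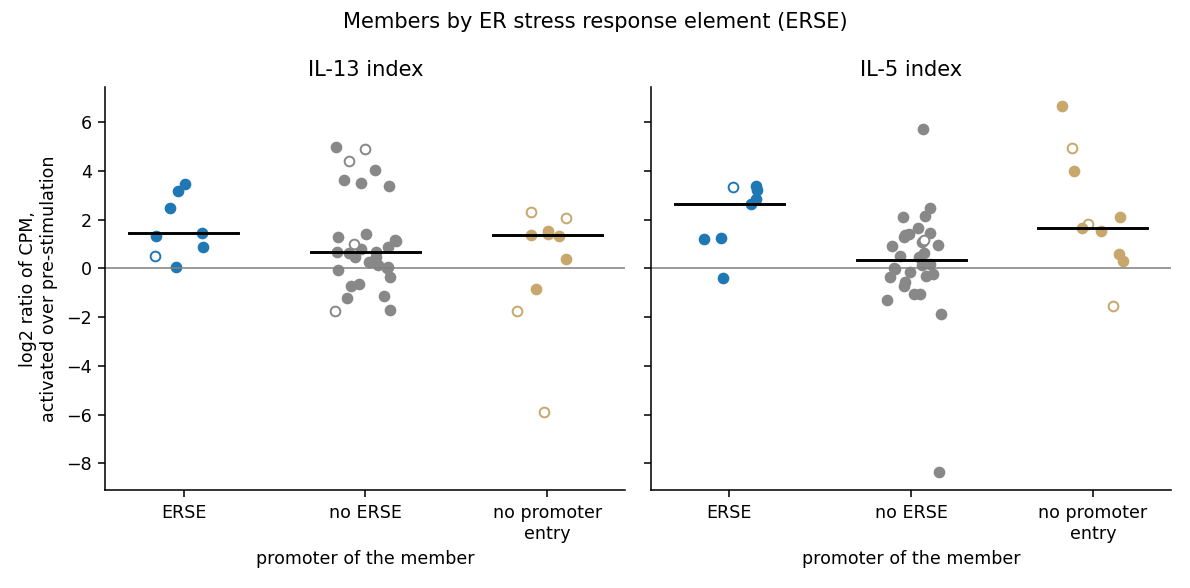
Log2 ratio of activated to pre-stimulation CPM (y axis) for the members with an ERSE in the promoter window, without one, and without a promoter entry, in each index; each point is a gene, hollow where its mean is under 50 CPM, and the bar is the median over the genes that reached 50 CPM. With an ERSE the genes that reached 50 CPM have medians of 1.44 (IL13) and 2.64 (IL5), against 0.66 and 0.33 without.

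Against silent cells, 13 of 42 members were at least 2-fold higher in activated cells in the IL13 index (17.5% of all genes) and 8 of 43 in the IL5 index (13.0%). Lower were 1 (Sec61a1, against 27.4%) and 0 (against 17.5%), and without silent cell 10 the Sec61a1 ratio went from −1.12 to −0.36. No member had every activated cell above every silent cell, where 0.0358 and 0.039% of all genes did. Calr, Pdia3, Sdf2l1 and Creld2, all of them folding genes, were higher in both indexes, 4 of 41 compared in both, against 3.91% of all genes. Of these Creld2 alone stayed 2-fold higher in both with each cell left out. The chaperones as a group were at a log2 ratio of 1.18 in the IL13 index and 0.52 in the IL5 index, the translocon at 0.49 and 0.25, the signal peptidase at 0.19 and 0.59, glycosylation at 0.29 and 0.15, the signal recognition particle at 0.16 and 0.08 and the stress factors at −0.07 and −0.16. Within dates the chaperones were higher in activated cells on both dates of both indexes, by log2 ratios of 1.27 and 1.09 (IL13, first and second date) and 0.45 and 0.57 (IL5). Other groups turned direction on 1 date, namely the translocon in the IL5 index (−0.21 on the first date, 0.73 on the second) and, in the IL13 index, the signal peptidase (1.07 and −0.34), glycosylation (−0.20 and 0.57) and the stress factors (0.61 and −0.34).

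Silent cells were stimulated, but no secretion of the cytokine of their index was detected. Secretion of other cytokines is not known for these cells. They held 2156 and 10663 CPM of the secreted products (IL13 and IL5 index), with Il5 at least 2-fold higher than before stimulation in both. Against pre-stimulation cells 7 of 37 members were higher in the IL13 index (28.8% of all genes) and 14 of 42 in the IL5 index (24.8%). Leaving out 1 cell moved the fold by over 1.5 times for 11 of 11 members called (IL13) and 16 of 18 (IL5). Srp19, Rpn1, Calr and Canx were at least 2-fold higher in both indexes, 4 of 35, against 9.69% of all genes. All kept that direction with each cell left out, and Calr and Canx stayed 2-fold higher in both. Lower were 4 members in each index (25.3 and 31.6% of all genes), with Stt3b and Ddit3 lower in both (2 of 35, against 8.68%), and neither kept its direction in the IL13 index, where the values without the cell that held most pre-stimulation reads were 0.09 and 0.95. Activated, silent and 30 min cells are compared with the same 5 pre-stimulation cells of their index, and these comparisons are not independent of each other.

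Against the 30 min cells, 25 of 42 members were higher in activated cells in the IL13 index (25.0% of all genes) and 21 of 42 in the IL5 index (15.5%), and 17 of 41 were higher in both (8.07%). These were Sec61b, Ssr1, Ssr2, Ssr4, Sec11a, Rpn1, Ddost, Stt3a, Hsp90b1, Calr, Pdia3, Pdia4, Pdia6, P4hb, Manf, Sdf2l1 and Creld2, and all 17 kept their direction in both indexes with each cell left out. There were 10 that also stayed 2-fold higher in both: Sec61b, Ssr4, Sec11a, Rpn1, Hsp90b1, Pdia4, Pdia6, P4hb, Sdf2l1 and Creld2. Sec62 and Xbp1 were lower in the IL5 index, 2 of 42 (22.3%). This comparison does not use the pre-stimulation cells, which are the fewest of any group. Against the 90 min cells 15 of 41 were higher in the IL13 index (18.8%) and 7 of 46 in the IL5 index (12.5%), and Sec11c, Pdia6 and Creld2 were higher in both, 3 of 41, against 4.1% of all genes. None of the 3 stayed 2-fold higher in both with each cell left out. Lower were 0 and 5 (23.7 and 25.5%), the 5 being Srp68, Sec61a1, Xbp1, Ddit3 and Herpud1.

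Cells with more chaperone reads tended to hold more translocon reads in some groups. Over 11 activated cells Pearson's r between the 2 shares was 0.62 in the IL13 index and 0.56 in the IL5 index, over 10 cells at 60 min of the IL5 index it was 0.93, and at 30 min of the IL13 index it was −0.14. Both shares come from the same library and share its depth, and these values are descriptions.

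The other genes of the pathway, from lists of genes that are not among the 49, were mostly low. Their counts stand against 26.9% of all genes higher and 33.6% lower in the IL13 index and 25.6 and 35.7% in the IL5 index, and with so few genes a list the shares are coarse. Of all genes compared in both indexes 18.1% were higher in both and 14.8% lower in both. Cells were not left out in turn for the genes of these lists. Of 17 further targeting and translocation genes in the files, 9 could be compared between activated and pre-stimulation cells in the IL13 index, with 4 higher and 2 lower, and 8 in the IL5 index, with 2 higher and 3 lower. Emc6, a subunit of the membrane protein insertase EMC, was higher in both, and Sec61a2, a further channel gene, and Emc10 were lower in both. Of 12 further glycosylation genes, 2 of 7 and 3 of 9 were higher and 0 and 1 lower, with Magt1, a subunit that joins Stt3b, higher in both. Of 18 further folding genes, 1 of 8 and 0 of 7 were higher and 2 and 1 lower, with Erp29 lower in both. Of 26 further genes of stress sensing and degradation, 2 of 10 and 3 of 9 were higher and 4 and 1 lower, with Ufm1 lower in both and Derl2 lower in the IL13 index and higher in the IL5 index. The median log2 ratios of these lists were 0.80 and −0.64 for targeting, 0.07 and 0.31 for glycosylation, 0.23 and −0.19 for folding and 0.58 and 0.72 for stress sensing and degradation, against −0.15 and −0.32 for all genes.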

How the data were processed

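Single ILC2 were lysed one by one, amplified with a SMART-Seq v4 3′ DE kit with ERCC spike-in RNA, aligned with TopHat2 and counted per gene with HTSeq by the authors. The submitters' processing notes list the builds mm10 and GRCh38. The annotation release and the strand setting are not given in the sources used here. The deposited values are whole-number counts per gene, 1 file per cell, with no molecular identifiers. Of the tallied alignments 62.0% fell in genes, and 28.7% were not unique and entered no gene. Exons of 19 of the 49 members overlap those of another gene, 6 on the same strand and 17 on the opposite strand, and their counts are uncertain to that extent.

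From these counts, reads were summed per group and scaled to CPM over all genes, with the 5 summary entries left out (Python 3.11.15, numpy 2.4.6, scipy 1.17.1, pandas 2.3.3). Intervals are exact Poisson intervals for a level and exact binomial (Clopper-Pearson) intervals for a ratio, both at 95%, and cover counting error only. Against 0 reads the fold uses a floor of 3 reads over the group. Genes were compared at a mean of at least 50 CPM over both groups and called at 2-fold. With 1 sample per state and index no test was run. Cells were picked singly under the microscope and no doublet caller was used. The 6 cells under 84667 reads stayed in the sums and were left out of values per cell.

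Values in single cells are given for the 2 members of each role group with the highest mean CPM, namely Srp9, Srp14, Sec61g, Sec62, Spcs2, Sec11c, Dad1, Stt3b, Hspa5, Manf, Atf4 and Herpud1. Other members are described where they were 2-fold apart in the same direction in both indexes, where 1 cell held most of a group's reads, or to account for the list. The members, the lists and the named genes were chosen with earlier results of these data known. Alternatives were edgeR 4.0.16 TMM factors, DESeq2 1.42.0 size factors (R 4.3.3), a total without secreted products, the mean of the cells' CPM, no shallow cells, the first date only, pre-stimulation cells of both indexes, other minimums and folds, and each cell left out.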

Additional observations from a re-analysis of the deposited data

Results flagged for a closer look

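In the pre-stimulation groups of 5 cells, 38 values were checked for a cell far from the other 4 by Dixon's ratio of gap to range, above 0.71, and 4 values had such a cell. Chance gives about 1 such group in 20. Stt3b stood at 2370.0 CPM in cell 4 of the IL13 index, where the other cells held 0 to 461.3 CPM. Herpud1 stood at 111.1 CPM in cell 5 of the IL13 index, where the others held at most 5.925 CPM. Hspa5 stood at 290.3 CPM in cell 2 of the IL5 index, where the others held at most 44.34 CPM. Manf stood at 552.5 CPM in cell 4 of the IL5 index, where the others held 0. In each case the pre-stimulation level that the ratios above use rests mostly or wholly on that cell.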

How the results depend on the processing

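The module's log2 ratios kept their direction under all alternatives except 1, the IL5 ratio of 30 min to pre-stimulation cells with single cells left out. In the order 30 min, activated and silent against pre-stimulation, then activated against silent, the values as reported were −0.37, 0.71, 0.18 and 0.52 in the IL13 index and 0.09, 0.80, 0.46 and 0.34 in the IL5 index. With edgeR TMM factors they were −0.16, 0.94, 0.24 and 0.71, and 0.45, 1.27, 0.84 and 0.43. The TMM factor was 1.28 for the IL5 pre-stimulation group and 0.926 for the IL5 activated group. With DESeq2 size factors they were −0.26, 0.64, 0.056 and 0.58, and 0.13, 0.88 and 0.44 for 30 min and activated against pre-stimulation and activated against silent in the IL5 index. With a total that left out the secreted products, activated against pre-stimulation was 0.81 and 0.93, activated against silent 0.62 and 0.45, and 30 min in the IL5 index 0.13. As the mean of the cells' CPM the IL13 values were −0.34, 0.79, 0.22 and 0.57, and the IL5 values 0.83, 0.51 and 0.32 without 30 min. On the first date only, activated cells were at 0.87 and 0.67 against pre-stimulation and 0.71 and 0.14 against silent cells, and the IL5 values at 30 min and for silent cells were 0.17 and 0.53. Against the pre-stimulation cells of both indexes the values were −0.42, 0.66 and 0.14, and 0.13, 0.84 and 0.50, and Srp14 in the IL13 index turned from 1.11 to −0.16.

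With each cell left out in turn, the IL13 ratios ran from −0.47 to −0.30, 0.62 to 0.78, 0.092 to 0.26 and 0.45 to 0.61, and the IL5 ratios from −0.056 to 0.41, 0.68 to 1.12, 0.34 to 0.77 and 0.27 to 0.44. The lowest IL5 value at 30 min came without cell 5 of the 30 min group, and the highest without cell 4 of the pre-stimulation group. Activated to pre-stimulation ratios ran from −1.40 to 1.34 for Ddit3 in the IL13 index, from −1.47 to 0.44 for Sec62 and from −1.38 to 1.56 for Xbp1 in the IL5 index. The count of members higher at 30 min in the IL13 index was 3 as reported, 5 on the first date or against the pre-stimulation cells of both indexes, 8 at a minimum of 10 CPM, 10 without a minimum and 3 to 5 with a cell left out. The IL13 silent count of 7 became 13 and 14 at those minimums. The IL5 count at 30 min of 8 became 14 at 1.5-fold and 7 to 16 with a cell left out, and the IL5 count against silent cells of 8 became 13 at 1.5-fold and 6 to 13 with a cell left out, the extremes without activated cell 10 and silent cell 8. At these other settings only the members were counted, so these counts have no share of all genes beside them. The causes were not tested. No paired analysis was possible because the labels pair no cells across states. States of an index share title dates, and levels within dates are given above as values with no test. Genes at a few reads per cell are limited by depth, and a group with 0 reads bounds a gene at the 3-read floor only.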
